A study of Homo sapiens with 8 samples.

Results

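A set of 9 genes that are used as surface markers of cancer stem cells or that encode nuclear factors of stem-like tumor cells were examined: the surface markers *CD44*, *EPCAM*, *CD24*, *PROM1* and *ALCAM* and the nuclear factors *SOX9*, *SOX4*, *KLF4* and *BMI1*. They were taken by name, and all 9 have a row among the 58302 gene rows of the count table. The cells were DLD1, a human colorectal cancer line. OE-WT cells stably carried wild-type *TRMT6* and *TRMT61A*, the subunits of the methyltransferase that places m1A on tRNA, in a pCDH lentiviral vector, and CTRL cells were the control line, labelled WT in genotype. Each group had 2 libraries of poly(A)-selected RNA, each run in 2 lanes, from cultured cells washed with cycloheximide at harvest in both groups. The labels do not say whether a line was 1 clone or a pool, or whether the libraries of a group came from separate cultures, so p-values measure the spread between these libraries, which may be technical. The study's methods call the replicates of this assay biological, but count more of them than the 2 libraries per group here. The comparison asks how the mRNAs of stem cell markers differed between cells with raised TRMT6/61A and control cells.

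Tumor cells with stem-like traits are commonly sorted by proteins on their surface. CD44 is the receptor for the matrix polysaccharide hyaluronan, EPCAM is an adhesion molecule of epithelial cells, CD24 is a small, heavily glycosylated protein on a lipid anchor, PROM1 (CD133) is a protein of membrane protrusions, and ALCAM (CD166) is an adhesion molecule of the immunoglobulin superfamily. In the nucleus, SOX9 is a transcription factor of intestinal crypt progenitors, SOX4 is a transcription factor of embryonic progenitors and many carcinomas, KLF4 is a zinc finger factor of differentiating and reprogrammed cells, and BMI1 is a subunit of Polycomb repressive complex 1, which represses genes through histone H2A ubiquitination. In bulk RNA, fewer cells that express a gene and less of its RNA per cell cannot be told apart.

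*CD44*, *CD24* and *BMI1* mRNAs fell to about 0.547 to 0.601 of the CTRL level in OE-WT cells, *SOX9* and *SOX4* rose by 19.9% and 27.1%, *EPCAM*, *KLF4* and *ALCAM* did not pass the test, and *PROM1* had too few counts to be tested. Of the 8 genes with enough counts to be tested, 5 passed the quasi-likelihood test of edgeR at an adjusted p of 0.05 (Benjamini-Hochberg, over all 14133 genes tested), 2 upward and 3 downward. Among all genes tested, 21.1% passed, 9.44% higher and 11.6% lower. None of the 8 passed the thresholds of the study's methods, an unadjusted p below 0.05 with an absolute log2 fold change above 1, in edgeR or in DESeq2, and 3.15% of all genes did. With the unadjusted p alone, 6 passed in edgeR and 5 in DESeq2, against 33.8% of all genes in edgeR. The libraries of the groups did not overlap for 6 of the 8, against 60.2% of all genes tested. With 2 libraries against 2, an exact permutation test of a single gene cannot go below p = 0.333.

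The libraries held between 10327498 and 12379671 counts, so that 3 counts, taken as the one-sided 95% limit of a count of 0, are 0.233 to 0.302 CPM (each library's counts divided by its TMM-scaled total, per 1000000). This floor and the intervals on counts cover counting error only. *TRMT6* rose by 1.86 and *TRMT61A* by 1.21 on the log2 scale in OE-WT cells, without overlap. Of 12 genes of colon epithelium, *KRT8* lay between 4973 and 6109 CPM, *CDX1* and *GPA33* had too few counts to be tested, 2 passed upward and 4 downward, and their summed level was 11715 and 12099 CPM in OE-WT against 10703 and 10423 CPM in CTRL libraries. In that list *KRT20*, a keratin of differentiated colon cells, fell by 1.52 (SE 0.13), *CDH1* fell by 0.29, and *KRT18* and *KRT8* rose by 0.30 and 0.25 on the log2 scale. *KRT18* and *KRT8* also have the largest part of the summed level. The rises of both keratins were lost in 2 and 4 of 11 alternatives, among them library size alone as the scaling (adjusted p = 0.15 and 0.30). Of 12 markers of blood, fibroblast and endothelial cells, 5 were at 0 in all libraries, 2 had enough counts to be tested and *VWF*, with 5 and 6 counts in OE-WT against 30 and 14 in CTRL libraries, passed and was named after its values were seen, and the 12 summed to between 2.65 and 3.89 CPM per library. Its call was lost in DESeq2 and when OE-WT replicate 1 or CTRL replicate 1 was left out.

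Promoter sequences are shown for the members that passed the test and were matched to a promoter. In the table of RefSeq promoters used here (GRCh38.p14) 7 of the 9 genes were matched, and *EPCAM* and *SOX9* were not. The windows are the 250 bases before the RefSeq transcription start, 5′ to 3′ on the gene's strand, in lower case. For *CD44*, *PROM1* and *KLF4* that start lies inside the gene as annotated in GENCODE 44, and so does the whole window. Capitals mark a GC box (GGGCGG, the letters bound by SP1-type factors) or a CCAAT box (CCAAT, bound by NF-Y), on either strand. For *CD44* only the stretch of 24 bases with its boxes is given.
CD44, chr11:35139001-35139024 (+): GGGCGGgggcagaggggcCCGCCC
CD24, chr6:106975628-106975877 (-): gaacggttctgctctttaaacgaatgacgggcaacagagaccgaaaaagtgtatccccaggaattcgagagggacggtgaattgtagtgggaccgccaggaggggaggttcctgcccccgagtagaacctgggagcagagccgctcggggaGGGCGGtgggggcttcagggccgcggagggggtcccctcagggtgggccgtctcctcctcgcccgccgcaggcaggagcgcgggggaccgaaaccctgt
BMI1, chr10:22320849-22321098 (+): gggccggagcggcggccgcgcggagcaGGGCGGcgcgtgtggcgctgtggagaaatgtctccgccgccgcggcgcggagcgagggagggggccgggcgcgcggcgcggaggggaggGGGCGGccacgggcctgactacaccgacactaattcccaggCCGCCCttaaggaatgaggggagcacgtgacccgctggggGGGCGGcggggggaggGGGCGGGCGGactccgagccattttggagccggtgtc
SOX4, chr6:21593501-21593750 (+): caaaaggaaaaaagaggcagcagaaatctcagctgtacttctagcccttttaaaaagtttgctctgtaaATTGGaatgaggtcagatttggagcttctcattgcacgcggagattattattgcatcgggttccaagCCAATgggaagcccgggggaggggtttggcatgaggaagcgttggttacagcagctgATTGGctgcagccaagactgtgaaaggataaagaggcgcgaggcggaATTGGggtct

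The *CD44* window held 2 GC boxes, 170 and 152 bases before the start, the *CD24* window 1 and the *BMI1* window 6, of which the last 2 overlap by 2 bases. The *SOX4* window held no GC box and 4 CCAAT boxes, 181, 114, 57 and 10 bases before the start. *KLF4* had 4 GC boxes, *ALCAM* 1 and *PROM1* a single CCAAT box. A GC box was thus present in 5 of the 7 windows, among them those of *KLF4* and *ALCAM*, which did not pass the test, and in 42.6% of all 35116 RefSeq windows of this length. A CCAAT box was present in 2 of the 7 and in 32.0% of all. A TATA box (TATAAA), an AP-1 motif (TGANTCA) and a TCF/LEF motif (CTTTGAT) were in 10.7%, 6.57% and 2.26% of all windows and in none of the 7, which says only that these letters are not there. These matches describe the sequence and are not shown to be bound sites.

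Levels of different genes were compared as CPM per kb of merged exon. In CTRL cells *EPCAM* was the highest at 211 CPM per kb, followed by *SOX9* (55.6), *CD24* (39.8), *SOX4* (15.7), *CD44* (14.5), *KLF4* (12.1), *BMI1* (6.15), *ALCAM* (2.52) and *PROM1* (0.0800). Of these neighbors, *SOX4* and *CD44* overlapped between libraries and the other neighbors did not. In OE-WT cells the order of the levels was *EPCAM* (200.3), *SOX9* (66.7), *CD24* (21.8), *SOX4* (19.9), *KLF4* (11.9), *CD44* (8.32), *BMI1* (3.70), *ALCAM* (1.98) and *PROM1* (0.113). Here *CD24* and *SOX4* overlapped, and *CD44* lay below *KLF4*, the reverse of their order in CTRL cells. Per kb of the longest transcript *CD44* (15.3) stayed just above *KLF4* (14.8) in OE-WT cells. In CTRL cells the *EPCAM* level was 14.5 times the *CD44* level per kb of merged exon and 12.4 times per kb of the longest annotated transcript, by which *CD44* lay above *SOX4*.

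**Figure D1:**
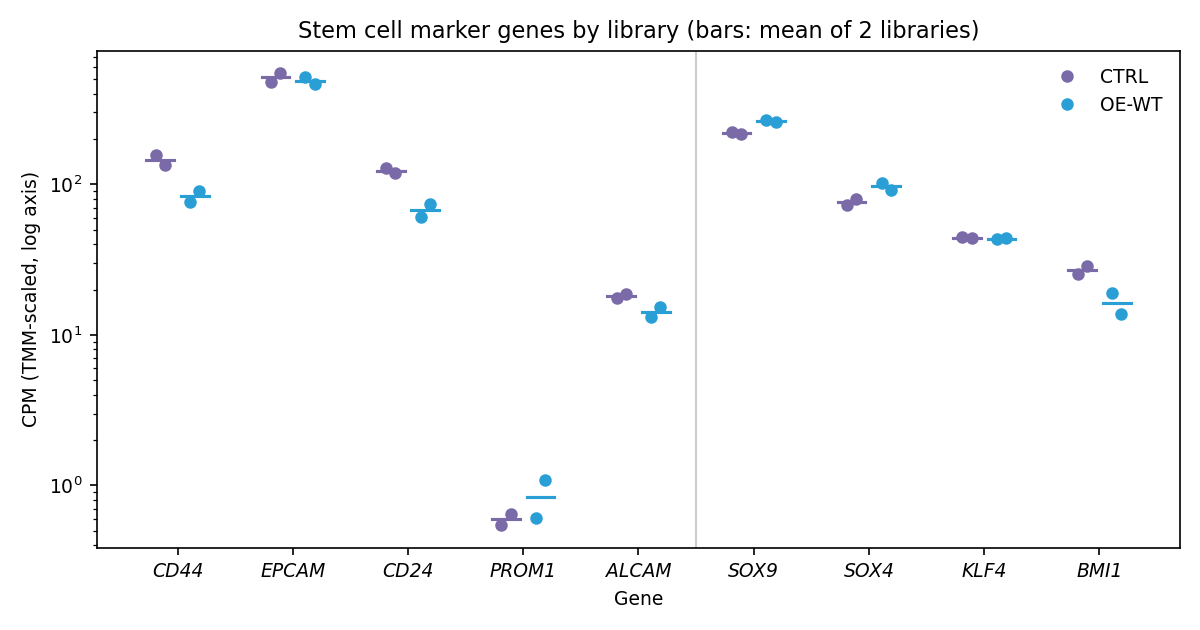
CPM (log axis) of the 9 genes in each library, surface markers left of the line and nuclear factors right of it. Points are libraries (purple CTRL, blue OE-WT) and bars are the means of 2 libraries. *CD44*, *CD24* and *BMI1* lie lower in both OE-WT libraries, *SOX9* and *SOX4* lie higher, and *PROM1* lies near 1 CPM or under it in all 4.

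*CD44* (ENSG00000026508, chr11:35138882-35232402, plus strand) was counted 751 and 922 times in the OE-WT libraries and 2000 and 1666 times in the CTRL libraries, which is 75.7 and 90.6 against 155 and 135 CPM. Both OE-WT libraries lay below both CTRL libraries. The means were 83.1 ± 10.6 and 145 ± 14.3 CPM (SD, n = 2 each), a log2 fold change of -0.81 (SE 0.084, 95% interval -0.98 to -0.63, edgeR adjusted p = 6.8e-07). *CD44* mRNA was thus 42.8% lower in OE-WT cells, and 3.94% of the genes tested had a lower fold change. The gene table counts all isoforms together, so the standard form and the variant forms of *CD44*, which differ by exon inclusion, were not told apart. *CD44-AS1*, an antisense transcript within the gene that shares 84 bases of exon with it, had 53 and 66 counts in OE-WT against 184 and 139 in CTRL libraries. Its log2 fold change was -1.11 (SE 0.18, edgeR adjusted p = 0.00013). The library kit kept strand, but the strand setting of the counting is not given, and without it reads from *CD44* and from *CD44-AS1* cannot be told apart. *CD44-DT*, at the 5′ end on the other strand, had 1 count in all 4 libraries together, as had ENSG00000251194, a noncoding gene inside an intron of *CD44* on its strand.

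The genes whose profiles over the 4 libraries lay nearest to *CD44*, by the distance of centered log2 CPM among 10214 genes, were *PLAU* (distance 0.035), *KCNK6* (0.040) and *LDAF1* (0.046). *PLAU* encodes the urokinase plasminogen activator and *KCNK6* a potassium channel. With 4 libraries in 2 groups many genes have such a profile, and the likeness is a description.

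Of 25 genes that act on or with CD44, such as hyaluronan synthases, ERM proteins that tie CD44 to actin, splicing factors of its variant exons and the proteases that cleave it, 21 were tested, 7 fell and 0 rose in edgeR. The median log2 fold change was -0.22, against 0.01 over all genes. With the unadjusted p 10 were lower and 2 higher, and DESeq2 called 3 lower and 0 higher. *MMP14*, a membrane protease that sheds CD44, changed most, from 50.1 and 45.5 CPM in CTRL to 14.9 and 15.5 CPM in OE-WT cells, a log2 fold change of -1.65 (SE 0.10). The ERM protein genes *MSN* and *EZR* fell by 0.49 and 0.32, and *PSEN2*, a catalytic subunit of gamma-secretase, fell by 0.47 on the log2 scale. *ADAM10* (-0.22) and *ADAM17* (-0.19), sheddases of CD44, and the hyaluronan receptor *HMMR* (-0.056) did not pass. These 3 genes were chosen after their values were seen. The count of 7 was 4 without OE-WT replicate 1 or with every gene that had a count, and 3 without CTRL replicate 1, and the median was -0.14 without OE-WT replicate 1. The call of *MSN* was lost in 7 of 11 alternatives and that of *PSEN2* in DESeq2 (adjusted p = 0.053).

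*CD24* (ENSG00000272398, chr6:106969831-106975627, minus strand) had the largest change of the 8 genes tested with all 4 libraries, although *BMI1* lay lower without OE-WT replicate 1 (-0.98 against -0.73) and without CTRL replicate 1 (-0.83 against -0.82). It was counted 602 and 755 times in OE-WT against 1642 and 1466 times in CTRL libraries, or 60.6 and 74.2 against 128 and 119 CPM. Again both OE-WT libraries lay below both CTRL libraries. The log2 fold change was -0.87 (SE 0.082, interval -1.04 to -0.70, edgeR adjusted p = 2e-07), which is 45.3% lower. Processed copies of *CD24* elsewhere in the genome could share its reads. The 3 annotated ones considered here had 0 counts in all libraries, and copies on the Y chromosome were not considered. How reads that match several places were counted is not given. A count of 0 therefore does not show that no reads were shared. Within each library *CD24* was between 2.59 and 2.84 times *CD44* in counts per kb, and the mean ratio in OE-WT was 95.3% of that in CTRL cells.

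CD24 is held in the membrane by a glycosylphosphatidylinositol (GPI) anchor. Of 20 other genes of GPI-anchored surface proteins 19 were tested, 12 fell and 1 rose, with a median log2 fold change of -0.42. *FOLR1*, a folate receptor, fell by 1.18, *PLAUR*, the urokinase receptor, by 0.71, and *GPC1*, a glypican, by 0.55 on the log2 scale. *CEACAM6*, a carcinoembryonic antigen family member, rose by 1.06 (SE 0.23), from 2.57 and 3.73 to 6.25 and 6.88 CPM. *CEACAM5*, of the same family and list, had 9 and 7 counts in OE-WT against 27 and 24 in CTRL libraries. Its log2 fold change was -1.33 (SE 0.39), and it was chosen after its values were seen.

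*EPCAM* (ENSG00000119888, chr2:47345158-47387601, plus strand) was counted 5086 and 4693 times in OE-WT against 6187 and 6714 times in CTRL libraries, which after scaling is 512 and 461 against 481 and 545 CPM. The groups overlapped. *MIR559* and a *Metazoa_SRP* gene, which lie in introns on the same strand, had at most 2 counts in a library. The log2 fold change was -0.076 (SE 0.073, interval -0.23 to 0.076, edgeR adjusted p = 0.50). The ratio of *CD44* to *EPCAM* in counts per kb, which needs no scaling between libraries, was 0.0359 and 0.0478 in OE-WT against 0.0786 and 0.0603 in CTRL libraries. Its OE-WT mean was 60.2% of the CTRL mean. The same ratio for *CD24* was 0.0929 and 0.126 in OE-WT against 0.208 and 0.171 in CTRL libraries, or 57.7%. Neither ratio overlapped between groups. The profiles nearest to *EPCAM* were those of *RABGGTB* (distance 0.012), *UBE2Q1* (0.016) and *SFSWAP* (0.017), none of which passed the test.

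Most of the genes listed around EPCAM passed the test. Of 19 listed genes of its membrane complex, cleavage and signaling partners all were tested, 12 fell and 1 rose, with a median log2 fold change of -0.30. *PRSS8*, a serine protease of epithelia, fell by 0.74 and the tetraspanin *CD9* by 0.73 on the log2 scale. The claudin genes *CLDN4* (-0.68) and *CLDN7* (-0.44), whose proteins form complexes with EPCAM, also fell. They were chosen after their values were seen. *LEF1*, a nuclear partner of beta-catenin, rose from 18.2 and 17.9 to 38.6 and 39.0 CPM, a log2 fold change of 1.11 (SE 0.10). The difference between the fold change of *EPCAM* and those of its partners was not tested.

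*ALCAM* (ENSG00000170017, chr3:105366909-105576900, plus strand) was measured at 13.2 and 15.2 CPM in OE-WT against 17.5 and 18.7 CPM in CTRL libraries. The groups did not overlap, but the difference did not pass the adjusted threshold, with a log2 fold change of -0.35 (SE 0.13, interval -0.62 to -0.073, edgeR adjusted p = 0.065). The adjusted p moved between 0.014 and 0.36 over 11 alternatives and passed in 3 of them, with library size alone (0.014), with the GC trend removed (0.015) and without OE-WT replicate 2 (0.033). Of 18 other adhesion molecules of the immunoglobulin superfamily 15 were tested, 11 fell and 2 rose, with a median of -0.64, or -0.37 among genes with at least 10 counts in every library. *BCAM*, a laminin receptor, fell by 0.81 and *NECTIN1*, a partner at adherens junctions, by 0.74 on the log2 scale. *CADM1*, a cell adhesion molecule, rose by 0.89 (SE 0.070), from 63.9 and 68.9 to 122 and 123 CPM, and *CEACAM6*, which is also in the list of GPI-anchored proteins, was the other gene that rose. DESeq2 called 6 lower and 2 higher.

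*PROM1* (ENSG00000007062, chr4:15963076-16084378, minus strand) was counted 6 and 11 times in OE-WT against 7 and 8 times in CTRL libraries and had too few counts to be tested. *FGFBP2*, which shares 166 bases of exon with it on the same strand, was at 0 in all libraries. The sums were 17 (exact Poisson 95% interval 9.90 to 27.2) and 15 (8.40 to 24.7), and a difference was not detectable at this depth. CD133 mRNA was thus near the limit of detection in both lines, at 0.604 and 1.08 CPM in OE-WT against 0.544 and 0.649 CPM in CTRL libraries.

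Among 26 other surface proteins and enzymes used to sort stem-like tumor cells, 17 were tested, 9 fell and 0 rose in edgeR, with a median log2 fold change of -0.51. With the unadjusted p 11 were lower and 0 higher, and DESeq2 called 6 lower and 0 higher. *ALDH1A3*, an aldehyde dehydrogenase, fell by 0.94, *CD47*, the signal that inhibits phagocytosis, by 0.74 and *ITGB4*, a hemidesmosome integrin, by 0.51 on the log2 scale, and *CD9* is in this list as well. *ABCG2*, the transporter behind side population staining, had 17 and 11 counts in OE-WT against 53 and 42 in CTRL libraries, a log2 fold change of -1.43 (SE 0.31, edgeR adjusted p = 0.0021). It was chosen after its values were seen, as was *ALDH1A1*, which had 0 counts in all 4 libraries.

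**Figure D2:**
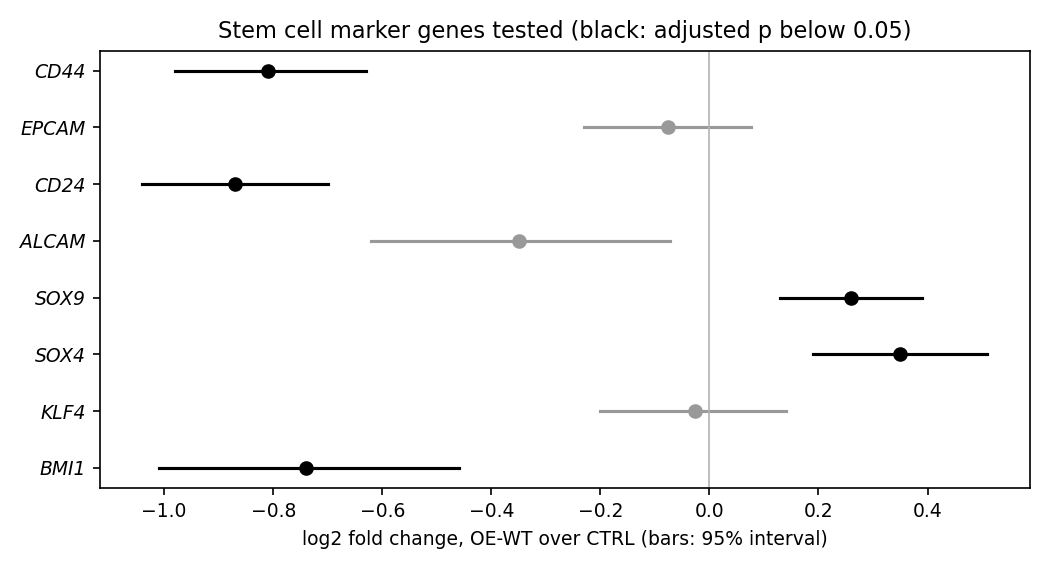
Log2 fold change (OE-WT over CTRL) of the 8 genes tested, with 95% intervals from edgeR's quasi-likelihood fit. Black marks an adjusted p below 0.05 and grey the other genes. *CD44*, *CD24* and *BMI1* lie between -0.87 and -0.74, *SOX9* and *SOX4* at 0.26 and 0.35, and the intervals of *EPCAM* and *KLF4* cross 0.

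*SOX9* (ENSG00000125398, chr17:72121020-72126416, plus strand) was the most abundant of the nuclear factors. It was measured at 267 and 258 CPM in OE-WT against 223 and 214 CPM in CTRL libraries, without overlap. The log2 fold change was 0.26 (SE 0.064, interval 0.13 to 0.39, edgeR adjusted p = 0.0054). With library size alone as the scaling it was 0.17 and no longer passed (adjusted p = 0.14). Under that scaling the median of all genes was -0.082. In counts per kb *CD44* was 0.112 and 0.138 of *SOX9* in OE-WT and 0.274 and 0.248 of it in CTRL libraries, so that the mean ratio in OE-WT was 47.8% of that in CTRL cells.

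*SOX4* (ENSG00000124766, chr6:21593751-21598619, plus strand), the gene with 4 CCAAT boxes above, was measured at 102 and 91.6 CPM in OE-WT against 72.3 and 80.1 CPM in CTRL libraries. Both OE-WT libraries lay above both CTRL libraries, with a log2 fold change of 0.35 (SE 0.076, interval 0.19 to 0.51, edgeR adjusted p = 0.0025). Of 17 other *SOX* genes only 4 had enough counts to be tested, 8 were at 0 in all libraries, and 0 passed the adjusted threshold in edgeR or in DESeq2. At an unadjusted p below 0.05 in edgeR 1 of the 4 passed, upward. In the alternatives 1 gene of the family passed the adjusted threshold with the GC trend removed and 1 did without OE-WT replicate 1. The 17 genes together summed to between 43.3 and 49.2 CPM per library.

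*KLF4* (ENSG00000136826, chr9:107484852-107490482, minus strand) was measured at 43.1 and 43.7 CPM in OE-WT against 44.8 and 43.7 CPM in CTRL libraries. The groups overlapped, and the log2 fold change was -0.026 (SE 0.082, interval -0.20 to 0.14, edgeR adjusted p = 0.86). A pseudogene of *KLF4* had at most 3 counts in a library. Of 16 other *KLF* genes 11 were tested, 2 rose and 0 fell in edgeR, with a median of -0.09, or -0.18 with library size alone and -0.14 without CTRL replicate 1. At an unadjusted p 3 were lower, and DESeq2 called 1 higher and 0 lower. *KLF10*, a TGF-beta response factor, rose by 0.43 and *KLF5*, a factor of proliferating crypt cells, by 0.30 on the log2 scale. The count of 2 was 1 without OE-WT replicate 1, 4 without OE-WT replicate 2 and 1 without CTRL replicate 1.

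*BMI1* (ENSG00000168283, chr10:22321099-22331484, plus strand), with the 6 GC boxes above, was counted 187 and 139 times in OE-WT against 325 and 355 times in CTRL libraries, or 18.8 and 13.7 against 25.3 and 28.8 CPM. The groups did not overlap, although the OE-WT libraries differed more from each other than the CTRL libraries did. The log2 fold change was -0.74 (SE 0.13, interval -1.01 to -0.46, edgeR adjusted p = 0.00038), which is 39.9% lower. A read-through gene, *COMMD3-BMI1*, shares 1000 bases of exon with *BMI1* on the same strand, 22.8% of the exon bases of *BMI1*. It was listed at 0 counts in all 4 libraries, and counting may have set aside reads that fall in both. A pseudogene of *BMI1* was at 0 as well. *COMMD3*, which ends 0.793 kb before *BMI1*, had a log2 fold change of -0.29 (SE 0.14) and did not pass (adjusted p = 0.16). It was at -0.11 without OE-WT replicate 1 and at -0.50 without OE-WT replicate 2, where it passed (adjusted p = 0.032), and it also passed with library size alone.

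Few other genes of the Polycomb complexes passed the test. Of 24 other subunits all were tested, 2 rose and 1 fell in edgeR, and their median log2 fold change was 0.06, or -0.03 with library size alone and 0.01 without CTRL replicate 2. The methyltransferase gene *EZH2* rose by 0.50 (SE 0.15), its paralog *EZH1* fell by 0.64 (SE 0.19) and *L3MBTL2* rose by 0.28 on the log2 scale. The count of 3 was 1 without OE-WT replicate 2, 0 without either CTRL replicate, 1 with every gene that had a count and 0 in DESeq2. *PCGF2* (MEL18), the paralog of *BMI1*, was at 29.4 and 29.3 CPM in OE-WT against 30.0 and 30.1 CPM in CTRL libraries, a log2 fold change of -0.034 (SE 0.094, adjusted p = 0.84). *RNF2*, the E3 ligase that BMI1 binds, had a log2 fold change of 0.40 (SE 0.19, adjusted p = 0.15). *PCGF2* and *RNF2* were chosen after their values were seen.

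Most of the listed genes of pluripotent cells had few or no counts. *NANOG* had 2 counts in OE-WT replicate 1 and 0 in the other libraries, and *POU5F1* (OCT4) had 2 and 4 counts in OE-WT against 5 and 2 in CTRL libraries. Of 19 pluripotency factors 12 had too few counts to be tested, none of them above 5 counts in a library, and 6 were at 0 in all libraries. Of the 7 tested, 1 rose and 1 fell in edgeR, *KLF5* (0.30) and *TBX3* (-0.31). With a DESeq2 test 0 passed, with OE-WT replicate 1 left out 1 did and with CTRL replicate 1 left out 0 did.

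Several genes of normal intestinal stem cells rose in OE-WT cells. Of 19 listed, 14 were tested, 5 rose and 1 fell, with a median log2 fold change of 0.27. That median was 0.07 without OE-WT replicate 1, 0.15 without CTRL replicate 1 and 0.17 with library size alone. *LGR5*, the R-spondin receptor that marks crypt base stem cells, was counted 911 and 953 times in OE-WT against 708 and 685 times in CTRL libraries, or 91.8 and 93.7 against 55.0 and 55.6 CPM. Its log2 fold change was 0.75 (SE 0.071, edgeR adjusted p = 2.2e-07). *ASCL2*, a transcription factor of the same cells, rose by 0.66, *SLC12A2*, a chloride cotransporter of crypt cells, by 0.58, and *CDCA7*, a nuclear protein of cycling cells, by 0.56. *AXIN2* (0.17) and *RNF43* (0.058), feedback genes of Wnt signaling that were chosen after their values were seen, did not pass. *EPHB3*, an ephrin receptor of the crypt base, fell by 0.38 on the log2 scale.

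**Figure D3:**
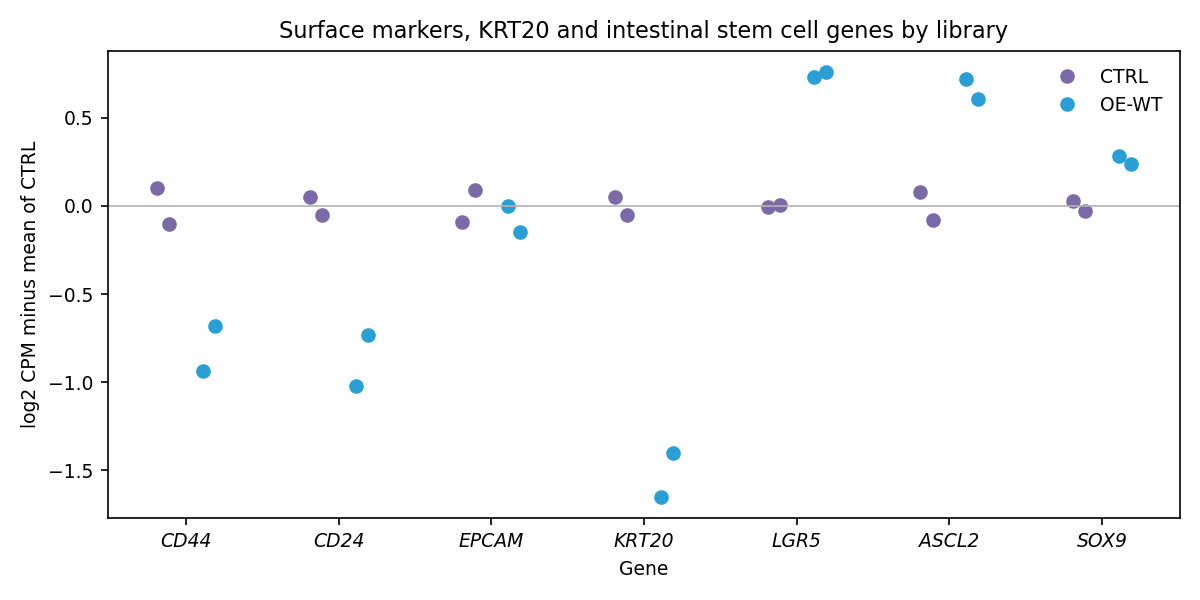
Log2 CPM of each library minus the mean of the CTRL libraries, for surface markers, *KRT20* and genes of intestinal stem cells. Points are libraries (purple CTRL, blue OE-WT). *CD44*, *CD24* and *KRT20* lie below all CTRL points in both OE-WT libraries, *LGR5*, *ASCL2* and *SOX9* lie above, and *EPCAM* overlaps.

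Surface proteins enter the membrane by way of the endoplasmic reticulum, so a hydrophobic start of the chain belongs to their class and is given here as a description. The highest mean Kyte-Doolittle hydropathy over 11 residues within the first 40 residues of the protein, a rough measure of a signal sequence, was 2.03 for CD44, 2.64 for EPCAM, 2.85 for CD24, 2.68 for PROM1 and 2.68 for ALCAM. All 5 lay at or above 2.0, as did 17.2% of 11626 proteins whose genes were tested. The nuclear factors were at 0.264 (SOX9), 0.855 (SOX4), 1.22 (KLF4) and 2.17 (BMI1), so BMI1, which is not a secreted protein, also passed this value. The median log2 fold change of the 4 surface markers tested was -0.58 and that of the 4 nuclear factors 0.12, with 2 of 4 lower, and 2 higher and 1 lower, respectively. In summed CPM the surface markers were at 662 and 642 in OE-WT against 782 and 819 in CTRL libraries, sums in which *EPCAM* has the largest part, and the nuclear factors were at 431 and 407 in OE-WT against 365 and 367 in CTRL libraries.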

How the data were processed

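RNA sequencing of DLD1 cells was analysed from gene counts that the authors deposited without normalization, 1 column per library with both lanes. The submitters' processing notes name HISAT2 2.2.1, featureCounts 2.0.0 and DESeq2 1.34.0 and poly(A) selection. The study's methods instead name HTSeq, edgeR, ribosomal RNA removal and more biological replicates than the 2 libraries per group used here. The annotation release and strand setting are not given in the sources used here. RNA was extracted from cleared lysates of cycloheximide-washed cells. GENCODE 44 gave symbols and GRCh38 positions for 57532 identifiers.

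OE-WT was compared with CTRL in edgeR 4.0.16 (R 4.3.3; filterByExpr on the groups, minimum 10 counts, TMM, quasi-likelihood test, Benjamini-Hochberg over 14133 genes, no block). Pearson's r of log2 CPM across genes, which are not independent, was higher within groups than between them. The members and the 12 lists were chosen with earlier results of these data known. Named genes were the members, *TRMT6*, *TRMT61A*, *NANOG*, *POU5F1*, overlapping genes, the 3 nearest profiles and up to 4 genes per list with the largest change among those called, without overlap and averaging 50 counts or more. Alternatives were RLE factors, library size alone, DESeq2 1.42.0, other filters, a replicate block, a GC trend (lowess, span 0.3) removed and each library left out. On simulated counts of 14133 genes the test recovered 88.5% of 200 changed genes, and 3.8% of its calls were false. Recovery at the effect sizes of the stem cell markers was not tested separately. Python 3.11.15 and matplotlib 3.10.9 were used. Some genes that the rule would name are not reported here.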

Additional observations from a re-analysis of the deposited data

How the results depend on the processing

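Of the 8 genes tested, 5 or 6 passed in each of the 11 alternatives, and *CD44*, *CD24*, *SOX4* and *BMI1* passed in all of them. Leaving out 1 library in turn, where the lone library of a group is assumed to vary like the others, gave log2 fold changes of -0.95 to -0.68 for *CD44*, -1.03 to -0.73 for *CD24*, -0.98 to -0.53 for *BMI1*, 0.23 to 0.29 for *SOX9*, 0.27 to 0.42 for *SOX4* and -0.16 to 0.019 for *EPCAM*, whose sign turned without CTRL replicate 2. That of *KLF4* turned to 0.051 with the GC trend removed. The cause was not tested. Over all genes 2976 passed, against 1377 in DESeq2 and 1903 to 2852 with a library left out, the fewest without CTRL replicate 1. With library size alone 23.0% of the genes that passed were higher, against 44.8% with TMM. Replicate numbers did not pair the samples (r = -0.0681 between deviations of same-numbered libraries), and the replicate block gave 2658 calls over all genes and 5 among the stem cell markers. Depth limits *PROM1*, *NANOG* and *POU5F1*.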

Other observations

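Protein-coding genes with a test next to the stem cell markers on the chromosome were chosen after their values were seen. Those next to *CD44* and *CD24* did not share the falls. *PDHX* and *FJX1*, the neighbors of *CD44*, had log2 fold changes of 0.15 (SE 0.16) and 0.07 (SE 0.09), and neither passed. *QRSL1*, on the left of *CD24*, was at 0.20 (SE 0.13), and *MTRES1*, 52.6 kb to its right, rose by 0.59 (SE 0.19, edgeR adjusted p = 0.027). *PIP4K2A*, to the right of *BMI1*, was at 0.05 (SE 0.11). *COMMD3*, to the left of *BMI1*, was at -0.29 (SE 0.14), the direction of *BMI1*, and did not pass (edgeR adjusted p = 0.16). *CALM2*, which encodes calmodulin and lies to the left of *EPCAM*, was at -0.04 (SE 0.06).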
